A study of Mus musculus and Homo sapiens with 12 samples.

Results

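Enteroendocrine and tuft cells are rare secretory and sensory cells of the gut epithelium, and 9 genes that mark them were examined in the mouse large intestine. The genes are a list fixed by name, and no value of a region enters the rule: the granule proteins Chga and Chgb, the hormones Pyy and Gcg, the transcription factors Neurod1 and Insm1, and the tuft cell genes Dclk1, Trpm5 and Pou2f3. They are 9 of 49943 genes that the RefSeq table of GRCm38.p6 places on the numbered chromosomes, X and Y. CUT&Tag, which tethers a transposase to a histone mark through an antibody so that DNA near the mark is tagged for sequencing, gave 8 lists of peaks. H3K18bu and H4K12bu (butyrylation of lysine 18 of histone H3 and lysine 12 of histone H4) have 2 replicates each, as have the acetyl marks of the same lysines, H3K18ac and H4K12ac. The series also holds lists of the human cell line CCD841, which were not used here.

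Per the labels, all 8 libraries are colon epithelium of the large intestine. The butyryl (Kbu) libraries came from mice on the high fat, high sucrose diet with 5% arabinoxylan, a dietary fiber, and the acetyl (Kac) libraries are labelled with the high fat, high sucrose diet alone. The study's methods describe male CETP-ApoB-100 transgenic mice, without ages, and put the whole high fat, high sucrose group on arabinoxylan for its second period. Acyl group and labelled diet therefore cannot be told apart in any comparison of Kbu with Kac. The methods also start from whole minced tissue, in which a rare cell type gives a small share of the nuclei. Fewer cells of a type and less mark per cell cannot be told apart in such samples. Nothing in the sources used here says whether the replicates of a mark, or the same number in different marks, came from separate animals.

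Enteroendocrine cells store peptide hormones in dense granules and release them into the blood in response to nutrients and microbial metabolites, short-chain fatty acids among them. Chromogranins pack the granules, and bHLH and zinc finger factors such as Neurod1 and Insm1 set the endocrine fate. Tuft cells are chemosensory cells that sense luminal compounds through a pathway ending in the cation channel Trpm5, and Pou2f3 is the factor they require. Acetylated and butyrylated H3K18 and H4K12 are found at active promoters and enhancers.

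In each library, rows that overlap were merged to regions, and the regions that overlap a gene plus or minus 10 kb were counted. The expected count is the window's length times the regions per base of that library over all chromosomes. The pileup of a row, the number of extended read ends that cover its summit, was solved from the deposited fold and p. Pileups were mostly 1 in the butyryl lists, at 89.9% and 90.6% of the rows of the H3K18bu replicates and 91.4% and 89.2% of those of the H4K12bu replicates. Such a region carries a counting error as large as its value. The butyryl lists held 60776, 50645, 50909 and 96332 regions in the same order. The acetyl lists held 298592 and 298390 regions for H3K18ac and 299480 and 297745 for H4K12ac, close to the limit of 300000 rows with which they were made. The files do not give the number of reads behind each list.

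The acetyl lists do not treat all chromosomes alike. Rows tied at the lowest p of an acetyl list, all of them with a pileup of 1, made up 72.1% and 52.0% of the rows of H3K18ac replicates 1 and 2 and 52.8% and 12.8% of H4K12ac replicates 1 and 2. They lay on 19, 6, 5 and 1 chromosomes in the same order, in each list the ones that come first in alphabetical order (chromosome 1, then 10 and onwards). In H3K18ac replicate 1 these were all the numbered chromosomes. The last of them, chromosome 9, where Pou2f3 lies, had the lowest density of the 19 in that list, at 104 rows per Mb. H4K12ac replicate 1, for example, had 289 rows per Mb on chromosome 11, where Pyy lies, and 60.7 on chromosome 2, where Chgb, Gcg, Neurod1 and Insm1 lie. The plot of rows by chromosome shows the step and its absence among rows with a pileup of at least 2. Acetyl values are therefore set beside those found for a pileup of at least 2 or against the density of the gene's own chromosome.

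**Figure D1:**
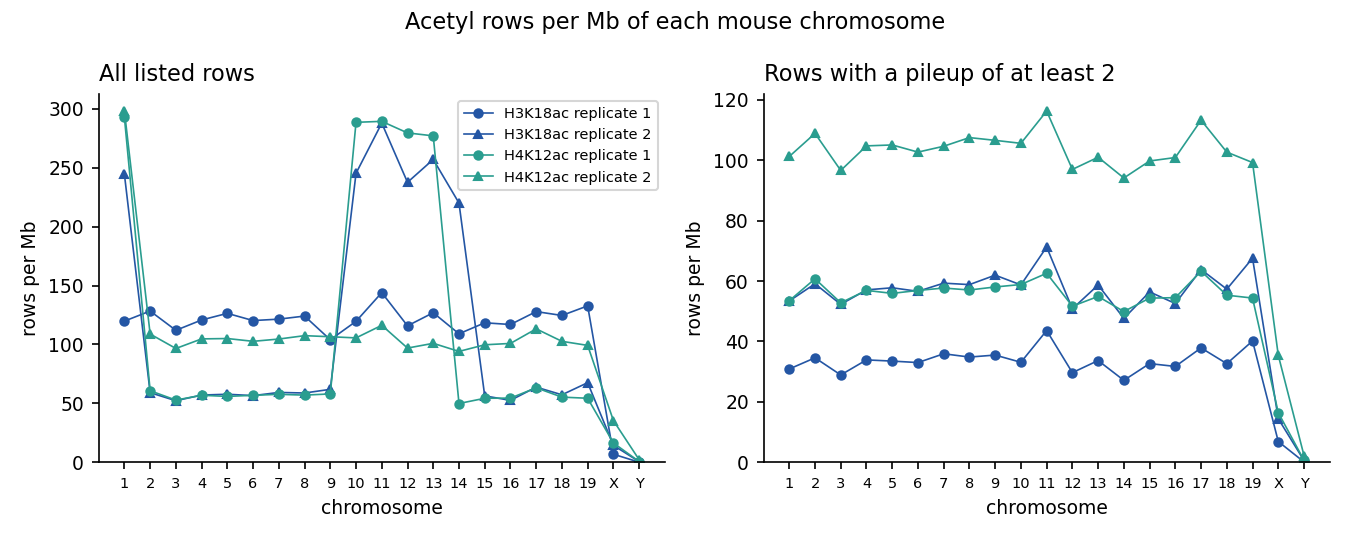
Rows per Mb (y axis) on each mouse chromosome (x axis) in the 4 acetyl lists, for all rows (left) and for rows with a pileup of at least 2 (right); each line is a library. In H3K18ac replicate 1 all numbered chromosomes hold tied rows. In the other lists the chromosomes that come first in alphabetical order hold more rows, as at 289 and 60.7 rows per Mb on chromosomes 11 and 2 of H4K12ac replicate 1, and this step is gone on the right.

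Summed over the 9 windows, the butyryl lists held 67 regions where 59.1 were expected. Observed over expected was 0.720 and 1.38 in H3K18bu replicates 1 and 2 and 0.773 and 1.45 in H4K12bu replicates 1 and 2, a mean of 1.08 ± 0.389 (SD, n = 4 libraries). The same ratio over all 49943 genes was 1.56 ± 0.0569, and each butyryl library had a lower ratio at the 9 genes than over all genes. These ratios sum over genes, and the median gene did not differ in this way, at 0.995 for the 9 and 1.02 over all genes. By library, in the same order, the median ratio was 0, 0.679, 0 and 1.34 at the 9 genes and 0, 0, 0 and 1.16 over all genes. The acetyl lists held 248 regions where 273 were expected, a mean ratio of 0.908 ± 0.361 (SD, n = 4) beside 1.26 ± 0.0568 over all genes. H3K18ac replicate 1 had the highest of the 4 acetyl ratios, 1.42, and the only one above its all-gene value of 1.27. With a pileup of at least 2 it had the lowest of the 4, 0.795, below its all-gene value of 1.48. Of the 9 genes, 3 (43.2% of all genes), 4 (40.2%), 3 (45.1%) and 6 (53%) were above expected in H3K18bu replicates 1 and 2 and H4K12bu replicates 1 and 2. In the acetyl libraries, in the same order of residues, 6 (60.2% of all genes), 3 (46%), 2 (44.2%) and 1 (54.4%) were, and none of the 9 was above expected in all 4 acetyl libraries (20.8% of all genes). Against the gene's own chromosome the acetyl ratio was 1.08 ± 0.208 and the butyryl ratio 1.05 ± 0.372. Against the density of all gene windows they were 0.750 ± 0.288 and 0.798 ± 0.286, beside 1.04 and 1.15 over all genes. The butyryl lists then held 67 regions where 80.2 were expected, so their ratio went from above to below 1. With a pileup of at least 2, the acetyl lists held 142 regions where 143 were expected (0.968 ± 0.116, all genes 1.43) and the butyryl lists 2 where 5.84 were expected. No butyryl region at these genes had q below 0.05, where 1.14 were expected, and 10.6% of all genes had such a region. Dclk1 supplied 30.1 of the 59.1 expected butyryl regions, and without it the mean ratio was 1.16 ± 0.746 in the butyryl libraries and 1.21 ± 0.670 in the acetyl libraries, which turns the acetyl ratio from below to above 1.

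**Figure D2:**
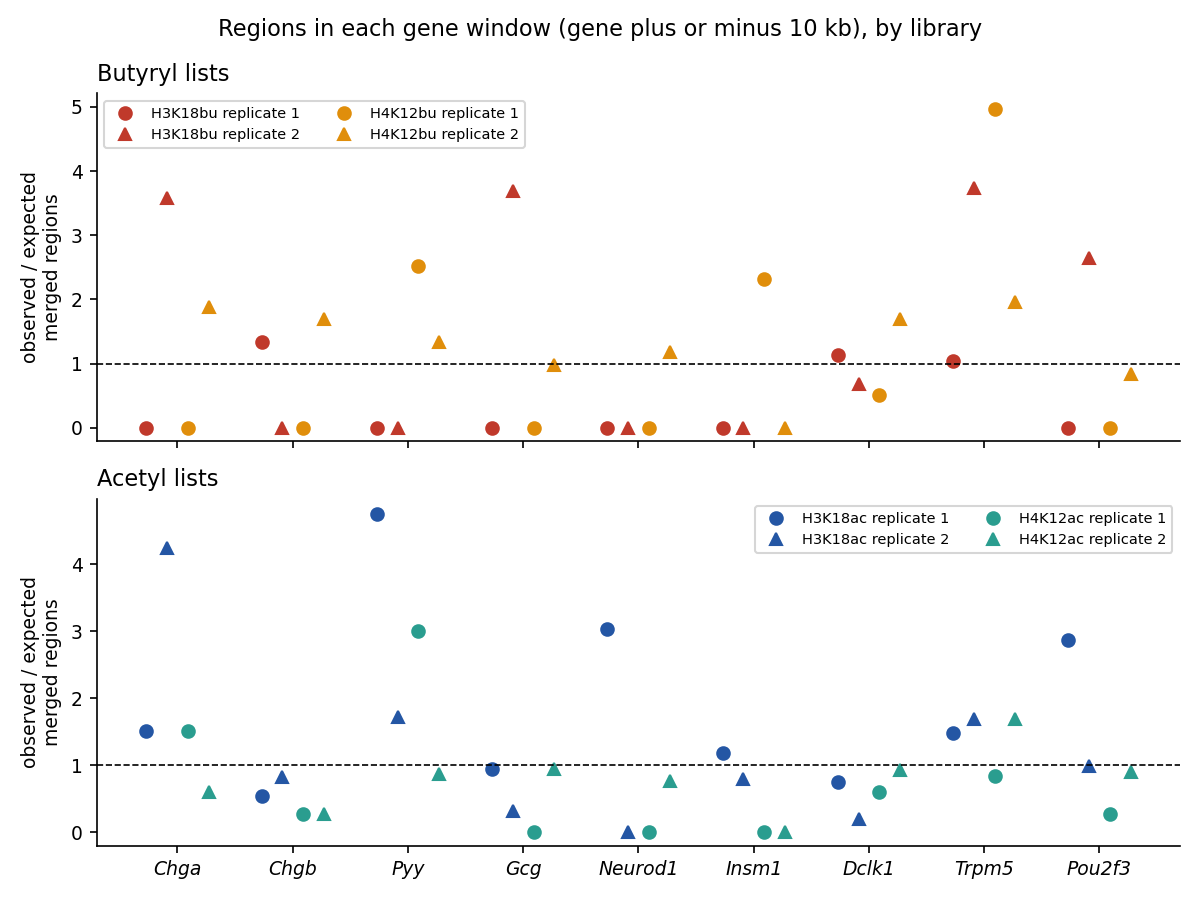
Observed over expected merged regions (y axis) in the window of each gene (x axis) in the 4 butyryl libraries (top) and the 4 acetyl libraries (bottom); each point is a library, a circle for replicate 1 and a triangle for replicate 2, and the dashed line marks 1. Most windows hold no region in at least 1 butyryl library, and Trpm5 alone lies above 1 in all 4, at 1.04 in H3K18bu replicate 1.

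No butyryl region recurred. H3K18bu had 0 regions found in both replicates at the 9 genes, where 1.902 were expected from the length, and 14.4% of all genes had one. H4K12bu also had 0, where 2.27 were expected and 21.9% of all genes had one. A count of 0 allows up to 3 regions by counting error alone, and the expected count of each mark lay within that. Both marks together had 0 where 4.17 were expected, and at the density of all gene windows 2.995 H3K18bu and 4.34 H4K12bu regions would be expected. H3K18ac had 9 such regions at 6 genes, where 10.0 were expected and 46.4% of all genes had one. H4K12ac had 5 at 3 genes, where 9.66 were expected and 46.7% of all genes had one. Where both replicates had to reach a pileup of 2, 3 of the 9 H3K18ac regions were left at 2 genes (33.5% of all genes had one) and 5 of the 5 H4K12ac regions at 3 genes (42.1%). Windows of 25 kb on each side held 5 recurrent H3K18bu regions and 2 recurrent H4K12bu regions. All 7 lay inside other genes: 4 in Kcnq1 and 1 in Cd81 on either side of Trpm5, 1 in Itpk1 beside Chga and 1 in Oaf beside Pou2f3.

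Butyryl regions lay over acetyl rows of the same residue at 1 of 26 H3K18 regions (3.85%, exact 95% binomial interval 0.0973% to 19.6%) and at 11 of 41 H4K12 regions (26.8%, interval 14.2% to 42.9%). Both intervals cover counting error only. Over the whole lists the shares were 39.1% and 34.0%, and over regions in gene windows 39.6% and 35.2%. Without the tied acetyl rows, and on the chromosomes of the 9 genes, the list shares were 33.8% and 32.2%, while the counts at the 9 genes were the same. The interval of the H3K18 share lay below each of these list shares, and that of the H4K12 share held each of them. The H4K12 share rested on 2 libraries: it was 55.6% (5 of 9) without H4K12bu replicate 2 and 7.32% (3 of 41) without H4K12ac replicate 2. The single H3K18 overlap lay in Tssc4, beside Trpm5. With acetyl rows of either residue, 9 of 26 H3K18bu regions (34.6%) and 20 of 41 H4K12bu regions (48.8%) lay over one. The shares with either residue were 52.7% and 49.0% over the whole lists and 53.2% and 50.4% over regions in gene windows. Without the tied rows 9 and 16 of these regions at the 9 genes lay over one (34.6% and 39.0%), beside 48.21% and 43.5% over the lists.

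RefSeq gives the bases around the start site of 7 of the 9 genes on GRCm38, with no entry for Insm1 and Pou2f3. Among those 7, rows overlapped the stretch from 250 bases before the start to 50 after it at Chgb, Dclk1 and Trpm5, and their upstream parts are shown because the lists bear on them. A row of any library lay there at 3 of the 7 genes and at 55.1% of the 27025 genes with an entry. Capitals mark the cyclic AMP response element TGACGTCA in Chgb, and in Dclk1 and Trpm5 the bases under a row of H4K12ac replicate 2. The start site of the Dclk1 entry lies inside the gene as placed by the gene table, from 55242303. The last bases of its stretch are therefore inside the gene, and distances given below for Dclk1 are counted from 55242303.
Chgb, chr2:132781392-132781641, plus strand: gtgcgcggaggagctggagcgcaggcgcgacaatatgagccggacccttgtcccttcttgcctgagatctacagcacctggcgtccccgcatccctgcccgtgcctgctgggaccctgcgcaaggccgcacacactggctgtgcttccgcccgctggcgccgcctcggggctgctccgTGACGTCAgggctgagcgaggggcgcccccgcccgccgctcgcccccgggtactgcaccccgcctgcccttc
Dclk1, chr3:55242114-55242363, plus strand: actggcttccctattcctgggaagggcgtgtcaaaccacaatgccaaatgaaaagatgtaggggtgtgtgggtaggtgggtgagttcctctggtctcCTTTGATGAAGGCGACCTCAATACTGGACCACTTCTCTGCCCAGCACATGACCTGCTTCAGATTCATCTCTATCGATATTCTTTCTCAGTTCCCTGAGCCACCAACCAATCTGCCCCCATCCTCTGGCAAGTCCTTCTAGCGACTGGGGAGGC
Trpm5, chr7:143094643-143094892, minus strand: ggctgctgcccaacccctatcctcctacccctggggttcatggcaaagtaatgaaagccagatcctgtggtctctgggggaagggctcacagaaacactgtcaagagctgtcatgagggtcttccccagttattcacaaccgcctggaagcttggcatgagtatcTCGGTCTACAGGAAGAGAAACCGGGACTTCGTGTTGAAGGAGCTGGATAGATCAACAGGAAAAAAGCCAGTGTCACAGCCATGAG
The Chgb stretch lay whole under a row of H3K18ac replicate 1 with a pileup of 2. The element TGACGTCA, which reads the same on both strands, was found upstream of Chgb alone among the 7 genes and in 1.55% of 32851 promoters of the table. The E-box CANNTG, the type of site that bHLH factors bind, was found upstream of Chga, Chgb, Pyy, Gcg, Neurod1 and Dclk1 and in 66.2% of all promoters, and Trpm5 had none. TATAAA, searched on both strands, was found in Gcg alone of the 7 and in 12.4% of all promoters. The octamer ATGCAAAT, a POU factor site, was in none of the 7 and in 1.60% of all promoters. These matches describe the letters only.

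Chga and Chgb encode the chromogranins, the acidic proteins that fill endocrine granules. Chga (chromosome 12, 102554941 to 102565027) had 0 and 2 regions in H3K18bu replicates 1 and 2 and 0 and 2 in H4K12bu replicates 1 and 2, where 0.672, 0.560, 0.563 and 1.06 were expected. The 4 regions lay in the flanks, 3 of them inside the neighbouring gene Itpk1, an inositol phosphate kinase, and none in Chga itself. H3K18ac gave 5 and 14 regions and H4K12ac gave 5 and 2, where about 3.30 were expected in each library, and H3K18ac replicate 2 stood above the other 3. Only 5 of these 26 acetyl regions had a pileup of at least 2 (6.91 expected). Chgb (chromosome 2, 132781642 to 132795079) had 1 and 0 H3K18bu regions and 0 and 2 H4K12bu regions, where 0.746, 0.622, 0.625 and 1.18 were expected. An H4K12bu region of replicate 2 lay 289 bp after its start site, 216 bp long and with a pileup of 1. H3K18ac replicate 1 had 2 rows there, centred 120 bp before and 288 bp after the start, each with a pileup of 2 and neither present in replicate 2. All 7 acetyl regions of Chgb had a pileup of at least 2, where 7.68 were expected.

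Pyy and Gcg encode the hormones of the L cell, peptide YY and the precursor of GLP-1. Pyy (chromosome 11, 102106676 to 102107832) had 0 and 0 H3K18bu regions and 1 and 1 H4K12bu regions, where 0.472, 0.394, 0.396 and 0.749 were expected, and no region of a butyryl list touched the gene. The H4K12bu region of replicate 1 lay 10.8 kb from the start site, on the far side of the gene, and overlapped a stretch found in both replicates of both acetyl marks. In H4K12ac that stretch (chromosome 11, 102096877 to 102097255) had pileups of 2 and 5 and in H3K18ac pileups of 1 and 2. Thus 5 of 8 libraries had a region there. Acetyl counts at Pyy were 11, 4, 7 and 2 in H3K18ac and H4K12ac replicates, where 2.32 were expected in each, and 6 of the 24 had a pileup of at least 2 (4.86 expected). Gcg (chromosome 2, 62474530 to 62483653) had 0 and 2 H3K18bu regions and 0 and 1 H4K12bu regions, where 0.650, 0.542, 0.545 and 1.03 were expected. An H3K18bu and an H4K12bu region, both of replicate 2, overlapped by 165 bp at 1472 bp before the start site, and no other library had a row there of the same acyl group. Gcg was 1 of 3 genes with no acetyl region inside the gene in any library, with Neurod1 and Insm1. Of its 7 acetyl regions 4 had a pileup of at least 2, where 6.69 were expected. Its highest acetyl pileup, 7 in H4K12ac replicate 2, lay 443 bp past the other end of the gene and was absent from replicate 1.

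Neurod1 and Insm1 had the fewest butyryl regions. Neurod1 (chromosome 2, 79452637 to 79456636), a bHLH factor of the endocrine lineage, had 1 butyryl region in 4 libraries where 2.28 were expected, in H4K12bu replicate 2 at 2832 bp before the start. Its acetyl counts were 8, 0, 0 and 2, so that H3K18ac replicate 1 held most of them, and 4 of the 10 had a pileup of at least 2. Insm1 (chromosome 2, 146221997 to 146225020), a zinc finger factor of the same lineage, had 1 butyryl region where 2.19 were expected, in H4K12bu replicate 1 and inside the gene. Its acetyl counts were 3 and 2 in H3K18ac and 0 and 0 in H4K12ac, where about 2.52 were expected in each, and 2 of the 5 had a pileup of at least 2 (5.29 expected). An H3K18ac stretch, 3125 bp below the lower end of Insm1, was found in both replicates with pileups of 1 and 2.

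Dclk1, a kinase bound to microtubules and a common tuft cell marker, lies on chromosome 3 from 55242303 to 55539068 and supplied more of the expected regions than any other of the 9. H3K18bu gave 8 and 4 regions there and H4K12bu gave 3 and 19, where 7.07, 5.89, 5.92 and 11.2 were expected, and the replicates of a mark lay on opposite sides of the expected value. All 34 regions had a pileup of 1, and 31 lay inside the gene. An H4K12bu region of replicate 2 lay 212 bp after the start site and overlapped H4K12ac replicate 2, which had a row centred 28 bp after the start with a pileup of 2. H4K12ac replicate 1 had a row 478 bp after the start, so the replicates did not overlap there. Acetyl counts were 26, 7, 21 and 32, each below the 34.6 to 34.8 expected, and 64 had a pileup of at least 2 where 72.8 were expected. Against chromosome 3 alone 35.3, 16.4, 16.7 and 30.4 were expected, and the H4K12ac replicates lay above expected. With a pileup of at least 2 the counts were 4, 7, 21 and 32 where 9.60, 16.6, 16.4 and 30.2 were expected. There too the H4K12ac replicates lay above expected and the H3K18ac replicates below. In all, 3 H4K12ac stretches inside Dclk1 were found in both replicates, and the one at 55372162 to 55372656 was the only recurrent stretch at the 9 genes with q below 0.05 in both (pileups of 3 and 3).

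Pou2f3 (chromosome 9, 43123927 to 43205755), the POU factor of tuft cells, had 0 and 5 H3K18bu regions and 0 and 3 H4K12bu regions, where 2.27, 1.89, 1.904 and 3.603 were expected. All 8 had a pileup of 1 and none lay over an acetyl row of its residue. Acetyl counts were 32 and 11 in H3K18ac and 3 and 10 in H4K12ac, where 11.2 were expected in each. H3K18ac replicate 1 stood apart with 32, of which 4 had a pileup of at least 2. Over the 4 acetyl libraries 28 of the 56 regions did, where 23.4 were expected. In all, 4 H3K18ac stretches inside Pou2f3 were found in both replicates, more than at any other of the 9 genes in either acetyl mark. Its window of 101829 bp was also longer than any but that of Dclk1 (316766 bp), and this ranking is not set against length. The pileups in replicates 1 and 2 were 2 and 3, 1 and 3, 2 and 2, and 1 and 2. None of the 4 had q below 0.05 in both.

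Trpm5, the channel that ends the taste-like signalling of tuft cells, was the only one of the 9 above expected in all 4 butyryl libraries, as were 20.7% of all genes. In H3K18bu replicate 1 this rested on 1 region where 0.962 were expected, and it was not above the 1.149 expected from its own chromosome or the count expected from the density of all gene windows. Trpm5 (chromosome 7, 143071529 to 143094642) had 1 and 3 H3K18bu regions and 4 and 3 H4K12bu regions, where 0.962, 0.802, 0.806 and 1.53 were expected. Among regions whose pileup reached 2, it was also the only one above expected in all 4 acetyl libraries, as were 28.1% of all genes. H3K18ac gave 2 and 8 of them and H4K12ac gave 4 and 8, where 1.31, 2.26, 2.23 and 4.11 were expected. Around the start site, H3K18bu replicate 2 had a region centred 276 bp before it and H4K12bu replicate 1 a region 108 bp after it. H4K12ac had a stretch there in both replicates (chromosome 7, 143094406 to 143094622), with pileups of 2 and 2, and the H4K12bu region overlapped it. Of the 11 butyryl regions, 3 lay inside Trpm5, 4 inside a neighbour and 3 within 1 kb of an end of a neighbour. Both butyryl regions whose pileup was above 1, of H4K12bu replicate 2, lay between and over the facing ends of Tssc4 and Cd81, a tetraspanin gene. The H3K18ac stretch found in both replicates with pileups of 2 and 3 lay at the same ends. In the 25 kb window H3K18bu gave 10 and 8 regions and H4K12bu 8 and 11, which is 6.13, 5.88, 5.85 and 4.25 times expected, against 1.62, 1.62, 0.995 and 1.75 times in the acetyl libraries. With that window Trpm5 was called higher in Kbu by limma (log2 difference 1.62, adjusted p = 0.000861), as were 13.8% of all genes. The added regions lay mainly in Cd81 and in the end of Kcnq1 that faces Trpm5, a potassium channel gene, where H4K12bu reached pileups of 2 and 4.

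**Figure D3:**
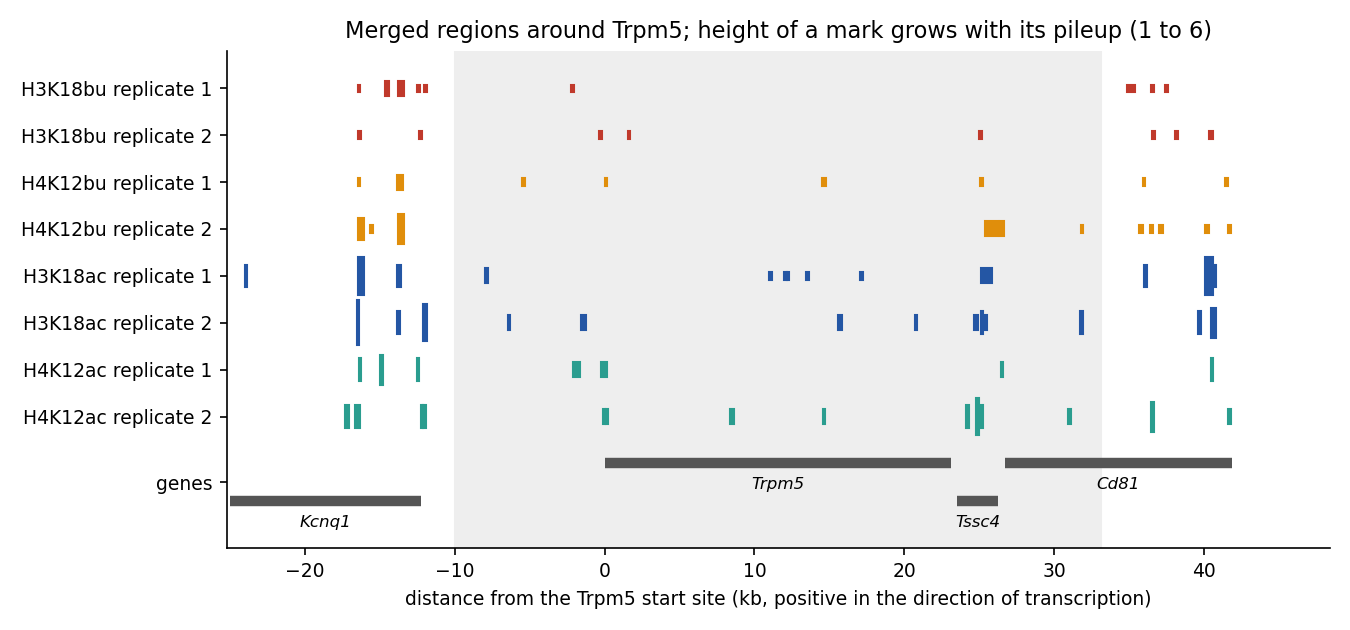
Merged regions of the 8 libraries (rows) by distance from the Trpm5 start site in kb (x axis), with the protein-coding genes below and the window of the gene plus or minus 10 kb shaded; taller marks have a higher pileup, up to 6. Most butyryl marks lie over Kcnq1, Tssc4 and Cd81, and within Trpm5 each butyryl mark is seen in a single library.

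Kbu was compared with Kac at each gene by limma across all 49943 genes, on log2 of observed over expected regions with 0.5 added to both, with the residue as covariate. In windows of 10 kb on each side, none of the 9 genes passed an adjusted p of 0.05 in either direction (0 also had an unadjusted p below 0.05), while 10.9% of all genes were called higher and 1.55% lower in Kbu. Against the density of the own chromosome, 293 genes were called higher and 43 lower, and among equal numbers of the strongest regions of each library 21 and 20. The log2 difference, Kbu minus Kac, ran from −1.18 ± 0.648 (SE) at Pyy, adjusted p = 0.288 by limma, to 0.83 ± 0.779 at Gcg, adjusted p = 0.572. Its 95% interval at Pyy was −2.61 to 0.25, and at Trpm5 it was −0.56 to 1.73 around 0.58 (adjusted p = 0.545). The median over the 9 genes was 0.58 and over all genes 0.29. This scale favours Kbu where regions are few, since the expected value is smaller in the Kbu lists: of 2837 genes with no region in any library, 2833 were called higher in Kbu. With a pileup of at least 2 the differences ran from −0.80 at Dclk1 to 1.08 at Insm1, and none of the 9 passed, where 16.5% of all genes were called higher and 9.08% lower. Of the 9, 8 had no butyryl region at that pileup, Dclk1 and Insm1 among them, as had 34551 of all genes. The differences at such genes come from the acetyl counts and the expected values. The interaction of acyl group and residue passed at none of the 9 and at 0.004% of all genes.

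The same lists held many more regions around a list of 16 genes drawn up for the absorptive colonocyte, the most abundant cell of the colon epithelium. The list includes Vil1, Cdx1, Cdx2, Epcam, Cdh1, Krt8 and Hnf4a, 7 genes of the epithelium at large that enteroendocrine and tuft cells express too. At the 16 genes the butyryl ratio was 5.88 ± 1.30 (SD, n = 4 libraries; lowest library 4.82), above all 4 values of the 9 genes, and 14 of the 16 were above expected in all 4 butyryl libraries. Their acetyl ratio was 1.84 ± 0.239, and 3.18 ± 1.28 with a pileup of at least 2, where the butyryl ratio was 11.3 ± 4.72. The 7 general epithelial genes held 255 butyryl regions where 32.8 were expected (mean ratio 8.07 ± 2.67) and the other 9 held 160 where 39.8 were expected (4.07 ± 0.258). This division was made after the values were seen. Over all 16, H3K18bu had 31 recurrent regions (2.34 expected) and H4K12bu 17 (2.79 expected). Cdx2, a homeobox factor of the gut epithelium, had 28 butyryl regions where 2.50 were expected, and Krt8, a keratin, 28 where 2.63 were expected. By the same limma test 5 of the 16 were called higher in Kbu and none lower, beside 10.9% and 1.55% of all genes, and the 5 (Vil1, Cdx1, Epcam, Cdh1 and Hnf4a) were all general epithelial genes. None of these 5 calls passed with a pileup of at least 2, where instead Car4, a carbonic anhydrase (log2 difference −1.87, adjusted p = 0.00500), and Ceacam1, an adhesion molecule (−2.05, adjusted p = 0.00413), were called lower, beside 9.08% of all genes. Both were named after their values were seen. Against the own chromosome 1 of the 16 was called higher, beside 0.587% of all genes (293). Olfactory receptor genes, silent in gut, were at the other end, with a butyryl ratio of 0.323 ± 0.0916 and an acetyl ratio of 0.535 ± 0.101 over 1428 genes (0.192 and 0.386 with a pileup of at least 2). All 4 butyryl values of the 9 genes were above the highest value of the olfactory receptor genes, 0.423, but with a pileup of at least 2 they were 0 in 3 of 4 libraries (mean 0.212). In acetyl the groups overlapped, with H4K12ac replicate 1 at 0.599 for the 9 genes and 0.615 for the olfactory receptor genes. Once the pileup had to reach 2 they no longer did, at 0.795 to 1.04 for the 9 genes and 0.207 to 0.561 for the olfactory receptor genes.

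**Figure D4:**
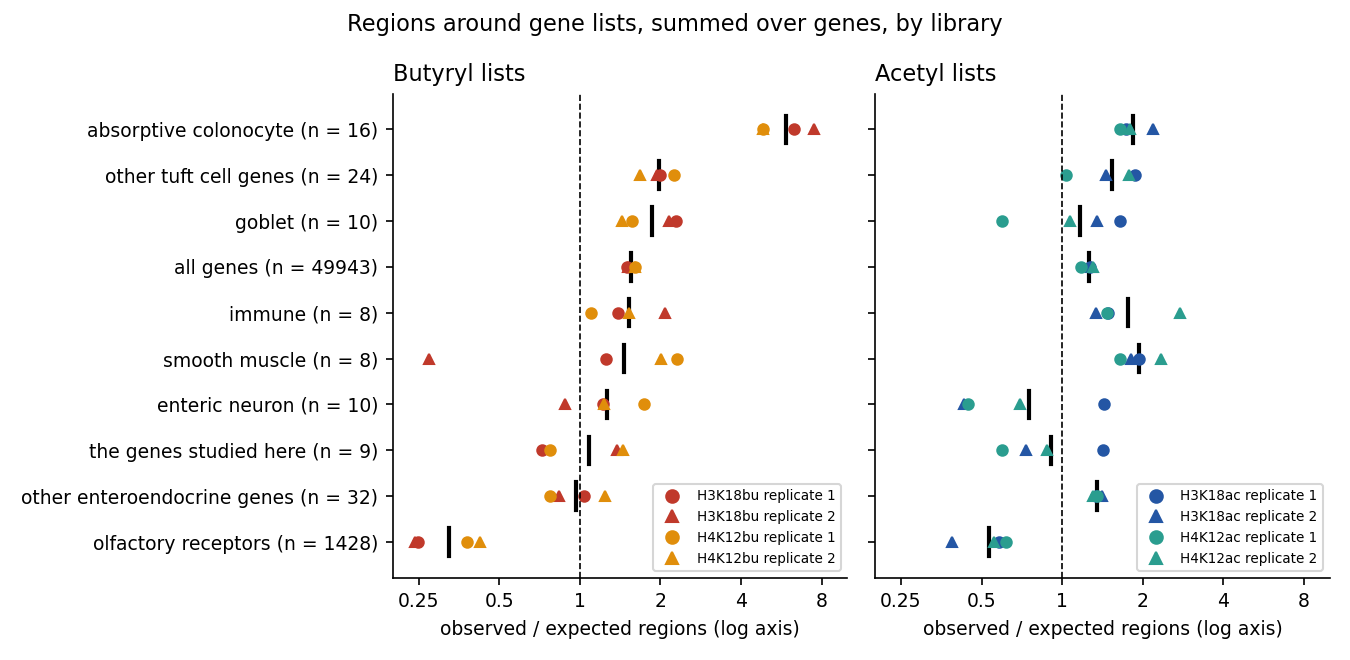
Observed over expected regions, summed over the genes of a list (log x axis), in the 4 butyryl libraries (left) and the 4 acetyl libraries (right); points are libraries, black bars their means, and the dashed line marks 1. The list named absorptive colonocyte, which includes general epithelial genes, averages 5.88 in the butyryl libraries, the 9 genes studied here 1.08 and the olfactory receptor genes 0.323.

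**Figure D5:**
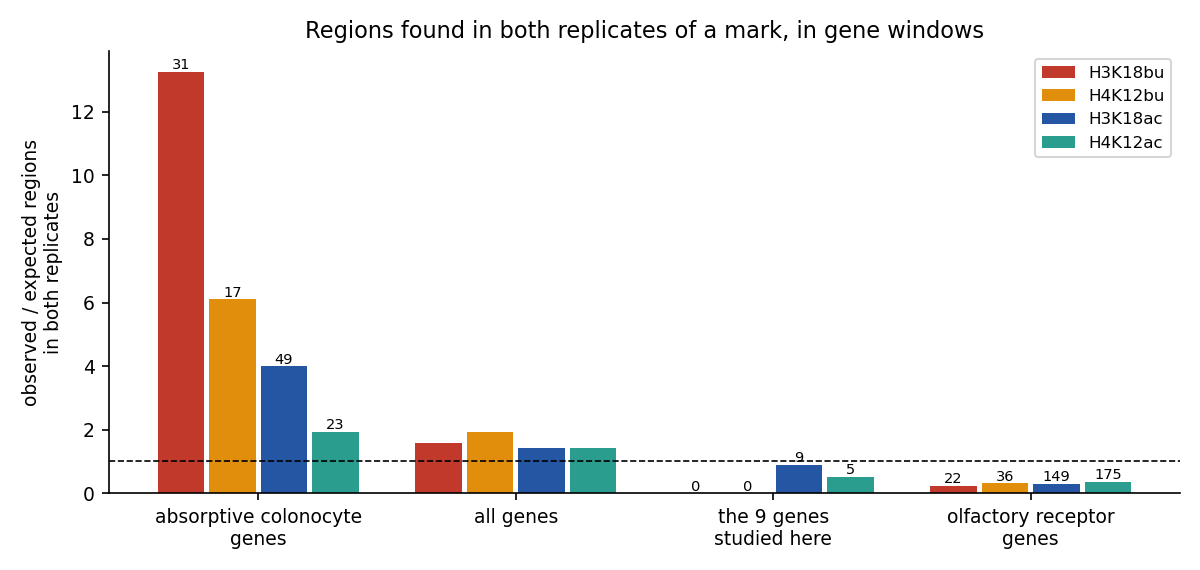
Observed over expected regions found in both replicates of a mark (y axis, from 0) for 4 groups of genes (x axis) and the 4 marks; numbers above the bars are counts of regions, and the dashed line marks 1. Both butyryl bars are at 0 for the 9 genes, beside 31 and 17 regions at the 16 colonocyte and general epithelial genes.

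Of 32 other enteroendocrine genes, the butyryl ratio was 0.970 ± 0.211 and the acetyl ratio 1.35 ± 0.0428. They were 0.856 ± 0.322 and 0.959 ± 0.119 with a pileup of at least 2, so the acetyl ratio went from above to below 1. The 32 genes included Gip, the incretin of the upper gut, above expected in all 8 libraries with 10 butyryl regions where 2.50 were expected and 29 acetyl regions where 11.5 were expected. Its window also holds Snf8, a sorting complex subunit. Sct, which encodes secretin, had 18 butyryl regions where 1.98 were expected and was called higher in Kbu (log2 difference 1.80 ± 0.387, adjusted p = 0.00970 by limma). Its window also holds Cdhr5, a brush border protocadherin on the colonocyte list. Neurog3, the factor that starts the endocrine lineage, had 5 butyryl regions where 2.06 were expected. Pcsk1, a prohormone convertase, and Lmx1a, a LIM homeobox factor, were called lower in Kbu (log2 difference −2.29 and −2.27, adjusted p = 0.0280 and 0.0185). Both lie on chromosomes with tied acetyl rows, 13 and 1. In all, 1 of the 32 was called higher and 2 lower (10.9% and 1.55% of all genes), and with a pileup of at least 2 these calls were lost while 3 others were called higher (16.5% of all genes). Against the own chromosome's density none of these 3 calls passed, with log2 differences of 1.32, −1.63 and −1.22 and adjusted p of 0.140, 0.120 and 0.202 for Sct, Pcsk1 and Lmx1a.

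Of 24 other tuft cell genes, the butyryl ratio was 1.97 ± 0.232, above all 4 values of the 9 genes, and the acetyl ratio 1.53 ± 0.375. They were 1.36 ± 0.806 and 1.91 ± 0.0448 at a pileup of 2 or more. Ltc4s, the leukotriene C4 synthase, had 23 butyryl regions where 2.097 were expected, and Il17rb, a receptor for IL-25, had 22 where 3.11 were expected. Both were called higher in Kbu (log2 difference 1.49 and 1.25, adjusted p = 0.00970 for each by limma), 2 of 24 with none lower, beside 10.9% and 1.55% of all genes. Neither passed against the own chromosome, where the differences were larger (1.93 and 1.30, adjusted p = 0.0656 and 0.110). Neither passed with a pileup of at least 2, where they changed sign (−0.57 and −0.78, adjusted p = 0.520 and 0.235). At that pileup 6 of the 24 were called lower (9.08% of all genes) and none higher. Sh2d6, an adaptor, had 30 butyryl regions where 3.85 were expected and 3 with q below 0.05. Each of these 3 windows also holds another protein-coding gene: Mgat4b with Ltc4s, Actr8 and Chdh with Il17rb, and Capg with Sh2d6. The part of the neighbours in these counts was not tested.

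Markers of other cells of the tissue were also present in the lists. The butyryl ratio was 1.86 ± 0.422 at 10 goblet cell genes, 1.27 ± 0.358 at 10 enteric neuron genes, 1.46 ± 0.908 at 8 smooth muscle genes and 1.52 ± 0.410 at 8 immune genes. The acetyl ratios were 1.16 ± 0.446, 0.752 ± 0.473, 1.93 ± 0.301 and 1.76 ± 0.666 in the same order, beside 1.56 and 1.26 over all genes. At a pileup of 2 or more the butyryl ratios were 1.07 ± 0.468, 0.239 ± 0.477, 2.14 ± 2.06 and 0 (0 immune regions where 3.64 were expected), beside 1.74 over all genes. The acetyl ratios there were 1.96 ± 0.893, 0.870 ± 0.0646, 1.70 ± 0.441 and 1.65 ± 0.419, beside 1.43 over all genes. On chromosome 1, with its tied rows, Ptprc (leukocytes) held 166 of the 300 immune acetyl regions and Lmod1 (smooth muscle) 107 of 334. Among regions whose pileup reached 2 they held 30 where 30.5 were expected and 16 where 14.5 were expected. Lmod1 was the 1 of 8 smooth muscle genes called lower in Kbu, beside 1.55% of all genes, and it lost the call with a pileup of at least 2 (adjusted p = 0.249). At that pileup Acta2 (log2 difference −1.37, adjusted p = 0.0120) and Itgam (−1.56, adjusted p = 0.00917) were the only genes of the smooth muscle and immune lists called, both lower. That is 1 of 8 in each list, beside 9.08% of all genes. Ptprc and Lmod1 were named after their values were seen. Agr2, a goblet cell disulfide isomerase, had 20 butyryl regions where 2.96 were expected. It was the 1 of 10 goblet cell genes called higher in Kbu (log2 difference 1.42, adjusted p = 0.00970 by limma), beside 10.9% of all genes. The call held against the own chromosome (1.97, adjusted p = 0.0452), beside 0.587% of all genes. With a pileup of at least 2 its difference was −1.07 (adjusted p = 0.167). With equal numbers of the strongest regions it was 1.11 (adjusted p = 0.812). Another 3 goblet cell genes were called lower with a pileup of at least 2 (9.08% of all genes). Tpsg1, the second goblet gene named by the rule, had 9 where 2.40 were expected. Ret and Chrna3, a receptor kinase and an acetylcholine receptor subunit of enteric neurons, had 15 and 6 where 6.27 and 3.46 were expected. Tagln and Acta2, of the smooth muscle contractile apparatus, had 5 and 4 where 2.51 and 3.35 were expected, and Itgam and Coro1a, of leukocytes, had 18 and 8 where 7.21 and 2.38 were expected. Recurrent butyryl regions were 0 of both residues at the enteric neuron genes too, where 1.69 H3K18bu and 2.01 H4K12bu regions were expected. The other enteroendocrine genes had 3 H3K18bu and 5 H4K12bu regions of this kind, where 5.296 and 6.32 were expected. The other tuft cell genes had 4 and 6, where 4.72 and 5.63 were expected. Goblet cell genes had 1 and 3, where 1.68 and 1.998 were expected. Smooth muscle genes had 0 and 3, and immune genes 2 and 0.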

How the data were processed

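CUT&Tag lists of 8 mouse libraries were used. Per the labels, reads were processed with bcl2fastq 2.17.1, cutadapt 1.9.1, Bowtie2 2.3.1 and MACS2 2.1.0, and mm10 is among the builds named. The authors called peaks in each library without pooling and kept at most 300000 rows with p below 0.01. The authors deposited for each row the fold ratio over local background, a −log10 p-value and a −log10 q-value, and no counts of reads. The lists name no control library.

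Pileup and background were solved from fold = (pileup + 1) / (background + 1) and the Poisson upper tail. Rows that overlap by at least 1 bp were merged, windows took the gene plus or minus 10 kb, and a recurrent region is a stretch with a region of each replicate. Kbu and Kac were compared with limma 3.58.1 in R 4.3.3 over all genes, with Benjamini-Hochberg adjustment. This p measures the spread between these libraries only, which may be technical. The 9 genes, the cell type lists and the tests were chosen with earlier results of these data known. Of the other enteroendocrine and tuft lists, the 3 genes with most libraries above expected and all that passed the test are named, and 2 from each other list. The overlap counts were checked against bedtools 2.31.1 on simulated regions, and the limma step was run on simulated counts, where it also called unchanged genes and found higher genes more often than lower ones. Gene positions and promoters are from RefSeq (GRCm38.p6).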

Additional observations from a re-analysis of the deposited data

Results flagged for a closer look

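At Neurod1, H4K12bu replicate 2 had 1.18 times the expected regions and the other 3 butyryl libraries had 0, so the gap to the other libraries was the whole range. At Insm1, H4K12bu replicate 1 had 2.32 times the expected regions and the other 3 had 0. Each rests on 1 region with a pileup of 1. Any gene with a region in a single one of 4 libraries is singled out in this way, so these 2 values carry no chance rate. In all, 18 groups of 4 libraries were looked at; for values that are not mostly 0, chance singles out about 1 in 20.

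The difference between Kbu and Kac at Insm1 was 3.17 log2 units larger for H4K12 than for H3K18 (limma, unadjusted p = 0.0197, adjusted p = 0.979). It failed the correction over all genes. Both H4K12ac libraries and H4K12bu replicate 2 had 0 regions at Insm1, so their order on this scale comes from the expected values.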

How the results depend on the processing

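None of the 9 genes was called under the main settings. Among 206 values of single genes under alternatives, 184 kept their side of the threshold without a change of sign (Chgb and Insm1 came to 0 with equal numbers of the strongest regions), 20 changed sign without a call, and 2 became calls. The calls were Trpm5 with 25 kb flanks (log2 1.62, adjusted p = 0.000861 by limma) and Neurod1 in the gene alone (0.66, adjusted p = 1.07e-04), which had 0 regions in every library. The signs changed with q below 0.05 at Chga (0.27), Pyy (0.11) and Pou2f3 (0.50), with equal numbers of the strongest regions at Pyy (0.40) and Neurod1 (−0.18), and in the gene alone at Trpm5 (−0.11). None of the 9 genes had a butyryl region with q below 0.05, so the values there come from the acetyl counts and the expected values. With 25 kb flanks the signs changed at Chga (0.57), Neurod1 (−0.35), Insm1 (−0.082) and Pou2f3 (0.38), and against the own chromosome at Neurod1 (−0.051). With a pileup of at least 2, chosen after seeing the data like the own chromosome, protein-coding, joined-region, Dclk1 and neighbour settings, they changed at Chga (0.13), Chgb (−0.081), Dclk1 (−0.80) and Trpm5 (−0.61). Only Trpm5 of the 9 had a butyryl region at that pileup. Leaving out 1 library moved Neurod1 between −0.31 and 1.32, Insm1 between −0.074 and 1.07 and Pou2f3 between −1.46 and 0.0068. It changed the sign at Pou2f3 without H3K18bu replicate 1 (0.0068) and at Insm1 without H4K12bu replicate 1 (−0.074). It also did so at Neurod1 without H4K12bu replicate 2 (−0.0047), H3K18ac replicate 2 (−0.31) or H4K12ac replicate 1 (−0.26). The other genes kept their sign. Gcg moved between 0.24 and 1.37, Chga between −1.16 and −0.10 and Pyy between −1.71 and −0.70. Chgb moved between 0.15 and 1.01, Dclk1 between 0.30 and 1.15 and Trpm5 between 0.29 and 0.95.

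Genes called higher in Kbu numbered 5463 and lower 775. The higher calls were 2218 among genes with at least 8 regions, 2521 with q below 0.05 and 11701 in the gene alone, and the lower calls 1457 with 25 kb flanks. Higher and lower calls were 21 and 20 with equal numbers of regions, 293 and 43 against the own chromosome, 8243 and 4535 with a pileup of at least 2, and 2419 and 342 among protein-coding genes. Leaving out each library gave 4520 to 7106 higher and 330 to 1198 lower calls, the extremes of the latter without H3K18ac and H4K12ac replicate 2. The replicate block gave 5463 and 583, and same-numbered libraries did not deviate together (correlations −0.293 to 0.0334), so the numbers were not taken to pair them.

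Observed over expected in Kbu was 0 with q below 0.05, 0.212 with a pileup of at least 2 and 1.59 with 25 kb flanks (0.958 to 1.202 leaving out 1 library), and in Kac 0.511 with q below 0.05 (0.738 to 1.01). The Kbu ratio also went from above to below 1 in the gene alone (0.932), with the expected count from all gene windows (0.798) and without regions near another gene's end (0.950). With 25 kb flanks the recurrent regions were 5 for H3K18bu, 2 for H4K12bu, 17 for H3K18ac and 10 for H4K12ac. H3K18ac had 4 at 50% overlap, 0 with q below 0.05, 3 with a pileup of at least 2 and 5 in the gene alone, and H4K12ac had 3 at 50% overlap and 1 with q below 0.05. Butyryl regions over acetyl rows were 34.6% (H3K18) and 48.8% (H4K12) with either residue, 0% (H3K18) at 50% overlap and 2.44% (H4K12) over acetyl rows with q below 0.05, and ranged from 0% to 6.25% and from 7.32% to 55.6% leaving out 1 library. The causes were not tested. Limiting this to recurrent butyryl regions gave no value, since there were none.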

Other observations

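Short regions made up part of the counts. The shortest regions of each list were 73 bp long, and they were 18 of the 67 butyryl and 79 of the 248 acetyl regions at the 9 genes. Most lay within 300 bp of another region of the same length, 16 of the 18 and 65 of the 79. With regions that close joined, the 9 genes held 58 butyryl regions where 52.5 were expected and 199 acetyl regions where 204 were expected.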
